A study of Zea mays with 68 samples.

Results

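SCARECROW (SCR) and SHORT-ROOT (SHR) are plant transcription factors of the GRAS family. The maize genes followed here are SCR (GRMZM2G131516), its paralogue (GRMZM2G015080) and SHR (GRMZM2G132794), taken from the expression table by identifier. All 3 were found among 109715 gene rows, and all 3 passed the filter on low values together with 29827 genes in all. The reference gene table gives a name to SCR alone, and the names of the other members are working names that it does not carry. SCR and its paralogue are treated as related copies, so that reads able to fall to either gene make the level of each less certain than their sum. No sequences of these genes were used here.

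In the Arabidopsis root, SHR protein is made in the vascular cylinder and moves into the surrounding cell layer, where it turns on SCR. SCR binds SHR and holds it in the nucleus, and both act with zinc finger proteins of the INDETERMINATE domain (IDD) family on genes of asymmetric cell division, among them a D-type cyclin gene. In leaves of maize the SCR genes are known for the patterning of cell layers around veins.

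The material was the maize inbred line B73, without any treatment, and RNA was sequenced from polyA-selected libraries. Libraries of 4 shoot organs were compared. These were Internode 6-7 and Internode 7-8 of the stem with 3 libraries each, Vegetative Meristem & Surrounding Tissue with 2 libraries, called vegetative meristem below, and, from the ear, mature female spikelets, short branches that bear the florets (3 libraries). The meristem and spikelet libraries were recognised by the initials of the tissue in the column names, and every statement on them rests on that reading. Libraries are called by the number that their column carries, which for the internodes runs from 2 to 4. Whether the libraries of a tissue stem from different plants is not stated, and the spread on which p-values rest may therefore be technical. The meristem sample contains tissue around the meristem as well, and in whole-organ samples fewer cells of a type and less RNA per cell cannot be told apart.

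Of the floral markers, the summed level of the MADS-box genes M14, m6 and mpik32a lay between 914.8 and 1019 FPKM in spikelets and at 2.21 FPKM or lower elsewhere. M14 and mpik32a passed the filter on low values only through spikelet libraries and had to be high there. The markers were also chosen with earlier results of these data known, so that this sum is no independent check of the labels. FPKM is a fragment count corrected for transcript length and library depth, so that levels may be compared between genes. Of 4 markers of meristem and leaf primordia, yab14 and ns1 (which passed the filter on low values only through the meristem) were higher in the meristem than in both internodes, and knox3 was lower. The marker kn1 did not pass the test, at 137 and 139 FPKM in the meristem and 149 FPKM or more in every internode library. After median-of-ratios scaling, 2 of the 4 were called lower in the meristem than in internode 7-8. The summed level of these 4 genes was 187 to 196 FPKM in the meristem, 175 to 196 in internode 6-7, 222 to 341 in internode 7-8 and 75.2 to 145 in spikelets, so that this sum did not set the meristem apart from internode 6-7. Relative depth, read from the lowest values, ran from 0.413 times that of internode 6-7 library 2 in a spikelet library to 1.23 times in an internode library, and total read numbers are unknown.

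SCR was the most abundant of the 3 genes in the meristem and the member with the widest range. Its level was 89.3 and 131 FPKM in the meristem libraries. It was 12.7, 11.6 and 11.0 FPKM in internode 6-7, 15.1, 12.3 and 17.7 FPKM in internode 7-8, and 10.3, 10.5 and 17.8 FPKM in spikelets. Both meristem libraries lay above every library of the other tissues, and those tissues overlapped. The means were 110 ± 29.5 FPKM (SD, n = 2) in the meristem, 15.1 ± 2.67 (n = 3) in internode 7-8, 12.8 ± 4.28 (n = 3) in spikelets and 11.8 ± 0.905 (n = 3) in internode 6-7. The mean in the meristem was thus 9.37 times that in internode 6-7, 7.32 times that in internode 7-8 and 8.58 times that in spikelets. Among tested genes, 94.8% had a lower mean than SCR in the meristem, against 61.6% in internode 6-7, 68.2% in internode 7-8 and 67.4% in spikelets.

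The paralogue followed the same order at lower levels and with a smaller rise. It stood at 18.9 and 26.6 FPKM in the meristem. Its values were 5.57, 6.20 and 6.45 FPKM in internode 6-7, 11.1, 9.17 and 8.27 FPKM in internode 7-8, and 5.52, 6.55 and 12.1 FPKM in spikelets. The meristem libraries again exceeded all others, internode 7-8 exceeded internode 6-7 in every library, and the spikelet libraries spanned both internodes. The difference between the internodes did not pass the test given below (limma adjusted p = 0.425). How many of all tested genes separate the internodes in this way was not counted. Means were 22.8 ± 5.40 FPKM (SD, n = 2) in the meristem, 9.50 ± 1.43 (n = 3) in internode 7-8, 8.06 ± 3.55 (n = 3) in spikelets and 6.07 ± 0.451 (n = 3) in internode 6-7. The meristem held 3.75 times the level of internode 6-7, 2.39 times that of internode 7-8 and 2.82 times that of spikelets.

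SHR had another pattern, with like levels in the vegetative organs and a low level in spikelets. Its values were 11.7 and 16.6 FPKM in the meristem. It reached 9.20, 9.60 and 11.4 FPKM in internode 6-7, 11.2, 8.74 and 21.0 FPKM in internode 7-8, and 1.88, 2.20 and 3.09 FPKM in spikelets. The highest SHR value of all came from internode 7-8 library 4, so that internode 7-8 overlapped both the meristem and internode 6-7, while all spikelet libraries lay below every vegetative library. Both meristem libraries lay just above those of internode 6-7, at 11.7 against 11.4 FPKM where nearest, a difference that did not pass the test given below. The means were 14.2 ± 3.48 FPKM (SD, n = 2) in the meristem, 13.7 ± 6.49 (n = 3) in internode 7-8, 10.1 ± 1.20 (n = 3) in internode 6-7 and 2.39 ± 0.626 (n = 3) in spikelets. SHR was above the median tested gene in the vegetative organs and at 0.409 times that median in spikelets.

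**Figure D1:**
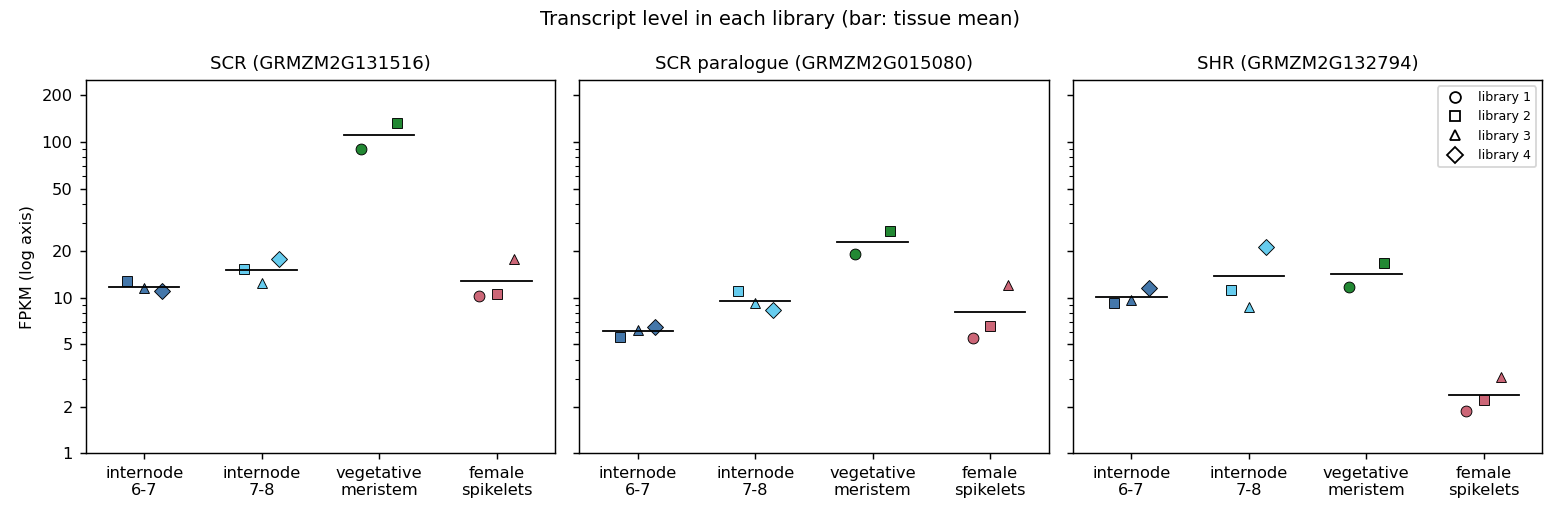
FPKM on a log axis for each library of internode 6-7, internode 7-8, vegetative meristem and female spikelets, with 1 panel for each of the 3 genes, symbols for the library numbers and bars for tissue means. SCR and its paralogue peak in the meristem (means 110 and 22.8 FPKM), whereas SHR is lowest in spikelets (mean 2.39 FPKM).

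Tissues were compared in 6 pairs with limma on log2(FPKM + 1), fitted to all tested genes. A gene was called at a Benjamini-Hochberg adjusted p under 0.05 with a log2 difference of at least 1 in size. On this scale the change of a gene with low values is understated. In the meristem, SCR rose over internode 6-7 by a log2 difference of 3.10 (SE 0.26, limma adjusted p = 3.17e-05) and over internode 7-8 by 2.78 (SE 0.26, adjusted p = 8.57e-05). The paralogue rose by 1.73 (SE 0.29, adjusted p = 0.00157) and 1.17 (SE 0.29, adjusted p = 0.0129). So 2 of the 3 genes were called higher in each comparison, where 13.2% of all tested genes were called higher against internode 6-7 (20.2% in either direction) and 13.9% against internode 7-8 (18.0% in either direction). The paralogue's rise over internode 7-8 was near the threshold, at 0.98 after median-of-ratios scaling (adjusted p = 0.0186) and at 0.93 without meristem library 2 (adjusted p = 0.121).

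SHR did not pass in either of these comparisons. Its log2 difference was 0.44 against internode 6-7 (95% interval -0.27 to 1.15, limma adjusted p = 0.324) and 0.12 against internode 7-8 (-0.60 to 0.83, adjusted p = 0.828). The intervals do not exclude a rise of up to 1.15 and 0.83, and against internode 7-8 the difference was -0.06 after scaling. For SCR the lower interval bounds were 2.53 and 2.20, above the upper bounds for SHR.

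All 3 genes fell from the meristem to spikelets, where 26.7% of tested genes were called lower and 38.4% in either direction. The log2 differences were -3.02 for SCR (SE 0.26, limma adjusted p = 1.22e-05), -1.44 for the paralogue (SE 0.29, adjusted p = 0.00172) and -2.16 for SHR (SE 0.32, adjusted p = 0.000307). Each was called in every fit without a library, and after scaling they were -2.59, -1.03 and -1.79. Scaling matters for these organs, since the median of all tested genes was -0.36 on the deposited values in this comparison and 0.01 after scaling. The corresponding medians for the meristem were 0.17 against internode 6-7, which became 0.06, and 0.16 against internode 7-8, which became 0.01.

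Between spikelets and the internodes SHR was the member that changed. It fell by 1.72 against internode 6-7 (SE 0.29, limma adjusted p = 0.00075) and by 2.04 against internode 7-8 (SE 0.29, adjusted p = 0.000318), where 19.9% and 13.7% of all tested genes were called lower and 32.9% and 26.0% in either direction. SCR differed from internode 6-7 by 0.08 (95% interval -0.44 to 0.59, adjusted p = 0.793) and from internode 7-8 by -0.24 (-0.76 to 0.27, adjusted p = 0.411). The paralogue stood at 0.29 (-0.28 to 0.86, adjusted p = 0.354) and -0.27 (-0.84 to 0.29, adjusted p = 0.403). Spikelet library 3 was the highest spikelet library for all 3 genes, and without it the differences from internode 6-7 were -0.16 for SCR and -0.01 for the paralogue. The median of all tested genes was -0.28 against internode 6-7 and -0.22 against internode 7-8, and -0.02 in both after scaling, when SHR stood at -1.48 and -1.86 with both calls kept.

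None of the 3 genes was called between the internodes by limma, where 0.124% of tested genes were called in either direction, 0.0168% higher and 0.107% lower. The estimates were log2 differences of 0.32 for SCR (95% interval -0.19 to 0.83, limma adjusted p = 0.639), 0.56 for the paralogue (0.00 to 1.13, adjusted p = 0.425) and 0.32 for SHR (-0.32 to 0.96, adjusted p = 0.718). All 3 means were higher in internode 7-8, and for SHR this rested on library 4, without which the difference was -0.02. None had an unadjusted p under 0.05, which 3529 of 29827 tested genes had, and the values were 0.196, 0.0512 and 0.289.

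In the order of levels, SCR and its paralogue ran from the meristem through internode 7-8 and spikelets to internode 6-7, and of the neighbouring steps the first passed the test and the others did not differ beyond their spread. SHR ran from the meristem through internode 7-8 and internode 6-7 to spikelets, with the last step past the test and the first steps not.

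**Figure D2:**
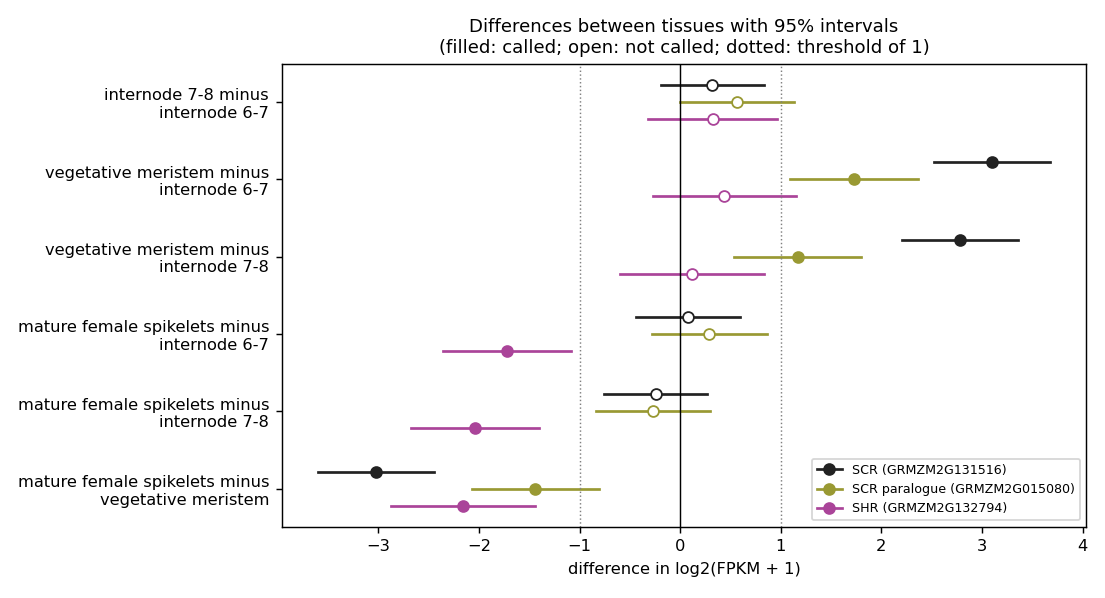
Difference in log2(FPKM + 1) between tissues for the 6 comparisons, with points for the limma estimate, lines for 95% intervals, filled points where a gene was called and open points where it was not. SCR and the paralogue are called in the 3 comparisons with the meristem, SHR in the 3 with spikelets.

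The balance between the genes was read as the ratio of their FPKM within a library, which does not depend on a scaling factor of that library. The tests and shares of variance used the log2 ratio of FPKM + 1 instead, which does depend on it and draws ratios with low values towards parity. SCR exceeded its paralogue in every library. The ratio was 4.72 and 4.93 in the meristem, against 1.70 to 2.29 in internode 6-7, 1.35 to 2.14 in internode 7-8 and 1.47 to 1.86 in spikelets. The meristem ratio was thus more than that of any other library, and the other tissues overlapped. Of the variance in the log2 ratio, 91.5% lay between tissues (exact permutation test of the between-tissue sum of squares over the 11 libraries, p = 0.00805, also 0.00805 adjusted over the 3 ratios).

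SCR and SHR stood near parity in the stem and apart in the other organs. The ratio of SCR to SHR was 0.958 to 1.39 in internode 6-7 and 0.841 to 1.41 in internode 7-8, but 7.63 and 7.88 in the meristem and 4.77 to 5.76 in spikelets. No spikelet or meristem library overlapped a stem library, and the tissues held 96.5% of the variance (exact permutation p = 0.000714, adjusted p = 0.00214). The numbers behind these ratios differ, because SCR was high in the meristem while SHR was low in spikelets. The paralogue was below SHR in internode 6-7, with ratios of 0.563 to 0.645, ranged from 0.393 to 1.05 in internode 7-8, stood at 1.60 and 1.62 in the meristem and reached 2.94 to 3.93 in spikelets. Tissues held 86.1% of that variance (exact permutation p = 0.00234, adjusted p = 0.00351). Internode 7-8 library 4, with its high SHR value, gave the lowest ratio to SHR for both SCR genes. Without spikelets the smaller design left adjusted p-values of 0.0536 for SCR to SHR and 0.075 for the paralogue to SHR.

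**Figure D3:**
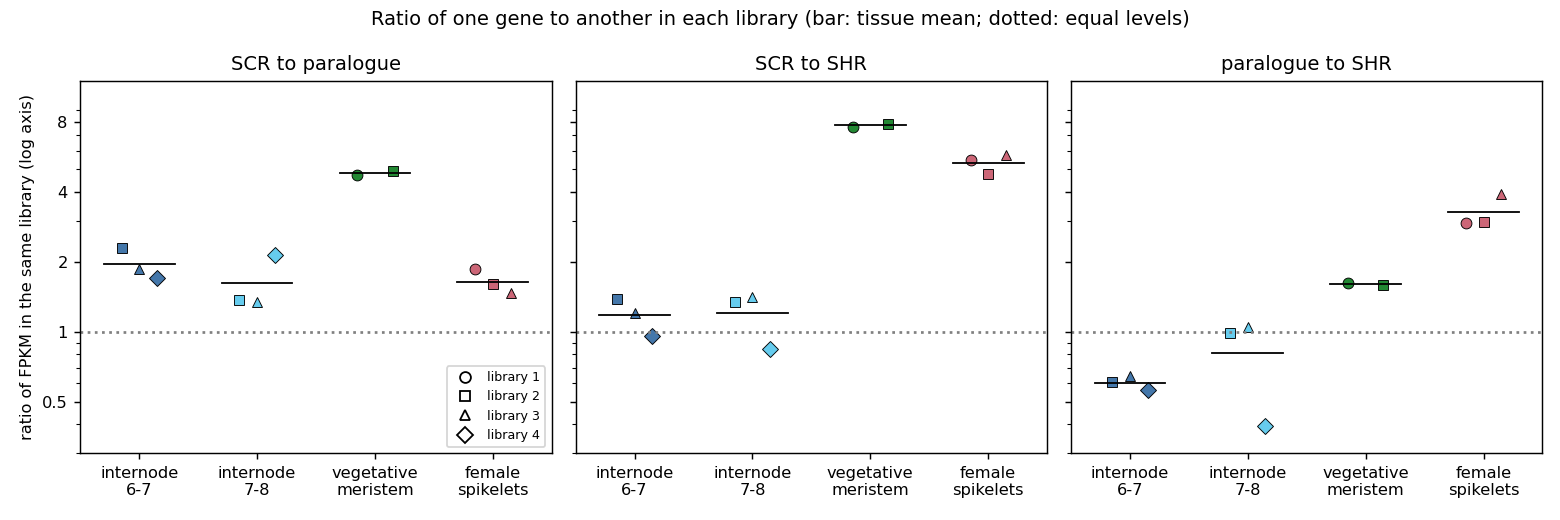
Ratio of the FPKM of one gene to that of another in the same library, on a log axis, with bars for tissue means and a dotted line at equal levels. The ratio of SCR to its paralogue is raised in the meristem alone (4.72 and 4.93), and the ratio of SCR to SHR is raised in the meristem and in spikelets.

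Genes with a profile like each member were ranked by the mean absolute difference between log2(FPKM + 1) values over the 11 libraries, after centring each gene on its mean over the 4 tissues. Likeness is a description over tissues that share libraries, and it says nothing of shared function. For SCR the nearest of all 29826 other genes was gst31 (GRMZM2G475059), a glutathione transferase gene, at 0.14. TE1 (GRMZM2G085113), the terminal ear gene of leaf initiation, was at 0.18, tin1 (GRMZM2G059088) at 0.23, nam1 (GRMZM2G393433), also listed as CUC2, a NAC factor gene of organ boundaries, at 0.25, and GH3 (GRMZM2G378106), named for enzymes that conjugate auxin, at 0.26. These genes reached 8.78, 6.33, 7.48, 11.1 and 6.84 FPKM on average in the meristem and 0.517 FPKM or less on average in every other tissue. All 5 passed the filter on low values only through the meristem libraries, so that they had to be high there, and their likeness to SCR depends on the pseudocount of 1. SCR itself held 11.8 to 15.1 FPKM in the other organs, and these genes are named as a description alone.

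Nkd1 (GRMZM2G129261), also listed as IDDveg9, stood among the 5 named genes most like the paralogue, with a distance of 0.23, but none of these 5 was among the 5 nearest when likeness was taken over tissue means. It is an IDD family gene known from the endosperm. Its means were 24.3 ± 2.55 FPKM (SD, n = 2) in the meristem, 15.4 ± 0.825 (n = 3) in internode 7-8, 12.1 ± 4.64 (n = 3) in spikelets and 10.1 ± 1.21 (n = 3) in internode 6-7. The other 4 were MSH1 (GRMZM2G360873) at 0.17, x1 (GRMZM2G160032) at 0.19, MAGE (GRMZM2G142119) at 0.22 and NADP-ME (GRMZM2G085019), the bundle sheath decarboxylase of C4 photosynthesis, at 0.24. For SHR they were DOF22 (GRMZM2G171852), a Dof transcription factor gene, at 0.21, bx9 (GRMZM2G161335), a glucosyltransferase gene of benzoxazinoid synthesis, at 0.22, OFP11 (GRMZM2G037043) at 0.23, PP2C24 (GRMZM2G044382), a protein phosphatase gene, at 0.23 and mus1 (GRMZM2G056075) at 0.24. All 5 held their lowest mean in spikelets, with DOF22 at 4.44 FPKM there against 18.3 to 21.0 in the vegetative organs. They were picked for likeness to SHR, which is lowest in spikelets, so that this low level follows from the choice.

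Among the members themselves the paralogue was 0.52 from SCR, in place 452 of 29826 genes ranked by likeness to SCR, while SCR was in place 7763 by likeness to the paralogue. SHR was 1.08 from SCR, in place 18575, and 0.80 from the paralogue, in place 22244 by likeness to the paralogue. The median gene was 1.00 from SCR, 0.63 from the paralogue and 0.76 from SHR, so that SHR lay beyond the median gene from both SCR and the paralogue.

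**Figure D4:**
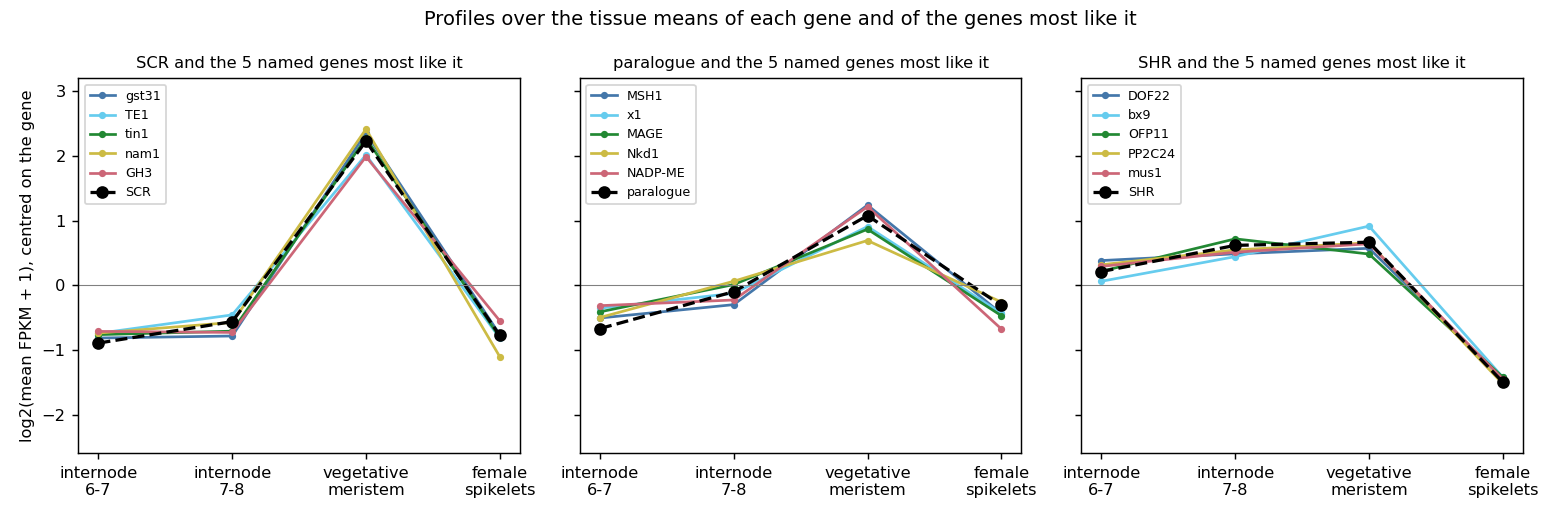
Tissue means as log2(mean FPKM + 1), centred on each gene, for each member (dashed black line) and the 5 named genes most like it (coloured lines). The SCR panel peaks in the meristem, the paralogue panel has a lower peak there, and the SHR panel falls in spikelets.

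Other genes of the pathway and family were taken from lists of names. Of 8 further GRAS genes 7 passed the filter on low values, all but GRAS24 (GRMZM2G140085), which was at 0.359 FPKM or lower in all libraries. None of the 7 was called higher in the meristem than in an internode by limma, where 13.2% and 13.9% of all tested genes were, a share at which a count of 0 among 7 is not set apart. At an unadjusted limma p under 0.05, 1 was higher against internode 6-7 and 0 against internode 7-8, and 3 were lower against each. Of all 29827 tested genes, 12974 differed in either direction at that threshold against internode 6-7 and 11778 against internode 7-8. The gene d9 (GRMZM2G024973), a DELLA gene of gibberellin signalling, was called lower against both, as were 7.03% and 4.02% of all tested genes. Its log2 differences were -1.26 against internode 6-7 (limma adjusted p = 0.00535) and -1.04 against internode 7-8 (adjusted p = 0.0155). The list's medians there were -0.69 and -0.25, against 0.17 and 0.16 over all tested genes. One gene of the list, scl1 (GRMZM2G023872), passed the filter only through spikelet libraries and had to be high there. Among the other 6, from meristem to spikelets 3 rose and 1 fell, where 11.7% of all tested genes rose and 26.7% fell, and their median was 0.27 against -0.36 over all tested genes. With scl1 the list's median was 1.03. Without it the medians in the meristem were -0.32 against internode 6-7 and -0.51 against internode 7-8.

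The gene that fell was GRAS19 (GRMZM2G172657), and its levels resembled those of SHR in order. It stood at 27.7 and 36.0 FPKM in the meristem, at 14.4 to 18.6 in internode 6-7, at 16.6 to 28.5 in internode 7-8 and at 1.26 to 2.47 in spikelets. The spikelet libraries lay below all others. GRAS19 fell in spikelets, with log2 differences of -3.57 against the meristem (SE 0.26, limma adjusted p = 4.39e-06), -2.61 against internode 6-7 (adjusted p = 1.6e-05) and -3.04 against internode 7-8 (adjusted p = 6.11e-06). The GRAS genes that rose from meristem to spikelets were GRAS76 (GRMZM2G028438), by 1.73, d9, by 1.30, and scl23 (GRMZM2G106548), by 1.03, with limma adjusted p-values between 0.000283 and 0.0152. The spikelet libraries of scl1 spread from 0.562 to 8.84 FPKM, and its other libraries were at 0.930 FPKM or lower. In the meristem GRAS76 stood at 2.56 ± 0.536 FPKM (SD, n = 2) and in spikelets at 10.8 ± 1.14 FPKM (n = 3). It was also called higher in spikelets than in internode 6-7 and internode 7-8, as were 13.0% and 12.3% of all tested genes. D8 (GRMZM2G144744), the other DELLA gene, was the most abundant of the list, at 187 and 200 FPKM in internodes 6-7 and 7-8, 116 in the meristem and 82.8 in spikelets. In spikelets its log2 difference was -1.18 against internode 6-7 (limma adjusted p = 0.00197), a call lost after scaling at -0.86, and -1.28 against internode 7-8 (adjusted p = 0.00152).

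Of the 3 IDD genes, id1 passed the filter on low values only through spikelet libraries, and the other 2 were both called lower in spikelets than in the meristem, where 26.7% of all tested genes were. Nkd1 rose from internode 6-7 to the meristem by 1.19 (SE 0.27, limma adjusted p = 0.00783) and fell from the meristem to spikelets by 1.02 (adjusted p = 0.00915), the latter call lost after scaling at -0.59. Nkd2 (GRMZM5G884137), its relative, had means of 3.55 FPKM in the meristem, 3.43 in internode 7-8, 1.88 in internode 6-7 and 0.670 in spikelets, with log2 differences in spikelets of -1.45 against the meristem (limma adjusted p = 0.000391) and -1.42 against internode 7-8 (adjusted p = 0.000325). The founding member id1 (GRMZM2G011357), known from leaves as a regulator of flowering, was listed at 0 in both meristem libraries and held 2.76 to 6.50 FPKM in spikelets. It was at 0.403 FPKM or lower in every internode library, and no test of it is given.

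Of 3 D-type cyclin genes, which promote entry into the cell cycle, cycD4 (GRMZM2G133413) had a meristem peak like that of SCR. It stood at 37.0 and 38.6 FPKM in the meristem, at 2.22 to 2.55 in internode 6-7, at 3.63 to 5.24 in internode 7-8 and at 0.884 to 1.56 in spikelets. The meristem exceeded internode 6-7 by 3.50 (SE 0.21, limma adjusted p = 5.29e-06) and internode 7-8 by 2.84 (adjusted p = 2.14e-05). The gene cycD1 (GRMZM2G006721) rose in the meristem over internode 6-7 by 1.22 (adjusted p = 0.00262). It was also called higher in spikelets than in internode 6-7, by 1.05 (limma adjusted p = 0.00154), as were 13.0% of all tested genes. Its means were 36.6 FPKM in the meristem and 32.8 in spikelets. The gene cycD2 (GRMZM2G075117) was not called in any of the 6 comparisons. In spikelets against internode 6-7 it missed the call by size alone, at -0.86 (limma adjusted p = 0.00585). So 2 of 3 cyclin genes were called higher in the meristem against internode 6-7, where 13.2% of all tested genes were, with a median of 1.22 against 0.17 over all tested genes. Against internode 7-8 it was 1 of 3, where 13.9% were, with a median of 0.92 against 0.16. The 3 retinoblastoma-related genes, which restrain the cell cycle, were not called between the meristem and either internode by limma, where 20.2% and 18.0% of all tested genes were, so that a count of 0 among 3 is not set apart. At an unadjusted limma p under 0.05, 0 differed against internode 6-7 and 1 against internode 7-8, as did 12974 and 11778 of all 29827 tested genes. Of the retinoblastoma-related genes, rbr3 (GRMZM2G033828) fell in spikelets by 2.67 against the meristem (adjusted p = 0.000201), with means of 25.7 and 3.42 FPKM.

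PIN genes encode carriers that move auxin out of or within cells. Of 8 identifiers 6 passed the filter on low values, of which PIN9 (GRMZM5G859099) passed only through the meristem libraries and had to be high there. Among the other 5, from meristem to spikelets 3 fell and 2 rose, where 26.7% of all tested genes fell and 11.7% rose, and their median was -1.59 against -0.36 over all tested genes. PIN1d (GRMZM2G171702) was at 81.2 and 103 FPKM in the meristem, at 25.2 to 38.4 in internode 6-7, at 35.1 to 49.2 in internode 7-8 and at 1.10 to 3.08 in spikelets. It was the PIN gene called higher in the meristem against both internodes, by 1.46 (limma adjusted p = 0.00477) and 1.19 (adjusted p = 0.0145). Of all tested genes 13.2% and 13.9% were called higher there, so that a count of 1 among 6 is not set apart. The log2 difference of PIN1d in spikelets was -4.86 against the meristem (limma adjusted p = 1.42e-06). PIN10a (GRMZM2G126260) went the other way, from 0.386 ± 0.283 FPKM (SD, n = 2) in the meristem to 15.2 ± 7.28 FPKM (n = 3) in spikelets, a log2 rise of 3.47 (limma adjusted p = 3.1e-05). It was the PIN gene called lower in the meristem than in internode 6-7, at -1.01 (adjusted p = 0.0462), as were 7.03% of all tested genes. PIN1a (GRMZM2G098643) resembled SHR, with a low spikelet mean of 3.39 FPKM against 42.3 in internode 6-7, 44.5 in internode 7-8 and 39.2 in the meristem, whose libraries stood apart at 22.6 and 55.8 FPKM. Its log2 difference in spikelets was -3.13 against the meristem (limma adjusted p = 8.64e-05). No gene of the GRAS, IDD, cyclin, retinoblastoma-related and PIN lists was called between the internodes by limma, where 0.124% of all tested genes were. At an unadjusted limma p under 0.05, 2 IDD genes and 1 cyclin gene were higher in internode 7-8, and 0 genes of the other lists differed. At that threshold 3529 of all 29827 tested genes differed in either direction, and these counts over small lists were not tested.

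**Figure D5:**
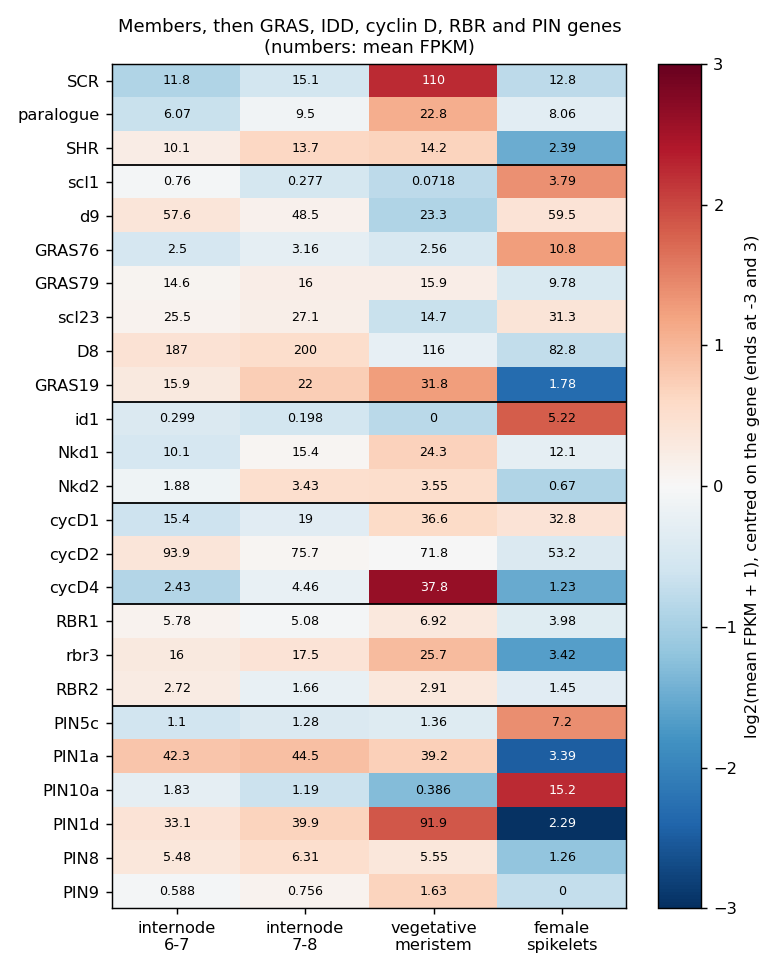
Colours give log2(mean FPKM + 1) centred on each gene, from -3 to 3, for the 3 members and the tested genes of the GRAS, IDD, D-type cyclin, retinoblastoma-related and PIN lists in 4 tissues, and printed numbers are mean FPKM. The row of cycD4 resembles that of SCR, and the rows of GRAS19 and PIN1a share the low spikelet level of SHR.

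Since maize SCR genes are known from leaf anatomy, markers of leaf cells were read beside the meristem results. Of the bundle sheath markers, NADP-ME rose in the meristem over internode 6-7 by 1.52 (limma adjusted p = 0.000704) to 4.44 FPKM, while rbcS (GRMZM2G098520), the rubisco small subunit gene, fell by 2.71 (adjusted p = 0.00041) to 12.9 FPKM. The summed level of both was 17.1 to 17.7 FPKM in the meristem, 76.8 to 109 in internode 6-7, 43.9 to 76.5 in internode 7-8 and 39.1 to 88.1 in spikelets. The mesophyll marker pep1 (GRMZM2G083841), which encodes the carboxylase of C4 photosynthesis, was listed at 0 in both meristem libraries and at 0.0871 FPKM or lower elsewhere, and mdh6 (GRMZM2G129513) did not pass in the meristem. The summed level of these mesophyll markers was 6.79 to 7.48 FPKM in the meristem, 6.92 to 9.43 in internode 6-7, 6.53 to 8.47 in internode 7-8 and 21.1 to 24.6 in spikelets. The leaf primordium marker yab14 (GRMZM2G005353) was at 40.6 ± 4.67 FPKM (SD, n = 2) in the meristem, listed at 0 in all libraries of internode 6-7 and at 10.6 ± 4.66 (n = 3) in spikelets. The 5 identifiers of the stem wall list summed to 70.7 to 71.1 FPKM in the meristem, 132 to 154 in internode 6-7, 96.1 to 143 in internode 7-8 and 72.1 to 81.4 in spikelets, with both identifiers of cesa11 at 0.0215 FPKM or lower. The part of these cell types in the levels of SCR, its paralogue and SHR was not tested.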

How the data were processed

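PolyA-selected RNA went into dUTP libraries that mark strand, per the labels' protocols. Cufflinks 2.1.1, TopHat2 2.0.8b and Bowtie2 2.1.0 are listed, per the submitters' processing notes. The genome build, the annotation and the strand setting were not given in the sources used, and overlapping or antisense genes may not have been told apart. The authors deposited FPKM values per gene in 1 table of 68 value columns, of which 11 could be tied to a tissue by name and 57 were not used. Depth in reads is unknown, so no counting intervals are given, and an exact 0 can be a failed estimate. Of the gene rows, 6 with a missing value were left out.

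Genes reaching 1 FPKM in 2 or more of the 11 libraries entered a single fit of log2(FPKM + 1) with limma 3.58.1 (R 4.3.3), in which each tissue had its own mean, with trended variances, two-sided tests and Benjamini-Hochberg adjustment within each comparison. The procedure was tested on simulated data with known changes. Log2 ratios of FPKM + 1 were tested by exact permutation of the between-tissue sum of squares over libraries.

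The members and lists were chosen with earlier results of these data known. Names come from RefSeq assembly Zm-B73-REFERENCE-NAM-5.0, which matched 15944 tested genes. The GRAS list rests on names, because a planned search by protein similarity could not be run without sequences. The genes named are the members, the 5 named genes most like each member, up to 3 called genes per list and comparison, and lists of 5 or fewer genes, with other list genes chosen after their values were seen. Alternatives were another pseudocount (0.1), no filter, median-of-ratios scaling, no trend, the 2 tissues compared alone, a replicate block and each library left out. List counts after scaling, without genes that passed the filter through 1 tissue alone and without spikelet library 3 were added after seeing the data.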

Additional observations from a re-analysis of the deposited data

How the results depend on the processing

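Across the alternatives, 335 recomputed values of the 3 genes and their ratios kept direction and call, 4 lost the call and 6 changed sign, none of the latter from a called value. Many of the 335 could not change direction. Each tissue has its own mean, so a log2 difference stays the same without a library of another tissue, without the filter or trend, and with the compared tissues alone. The 335 also include values that were not called at first. Median-of-ratios scaling took the paralogue's rise in the meristem over internode 7-8 to 0.984 and SHR in that comparison to -0.0610. Without spikelets, tissues held 96.2% of the variance of the SCR to SHR ratio and 66.2% of that of the paralogue to SHR ratio, and neither passed in this smaller design. With each library left out, log2 differences ran from 0.93 to 1.40 for the paralogue and -0.13 to 0.46 for SHR (meristem against internode 7-8), from -0.0156 to 0.573 for SHR between internodes, and, for spikelets against internode 6-7, from -0.16 to 0.21 for SCR and -0.0100 to 0.495 for the paralogue. SCR's rise in the meristem stayed between 2.51 and 3.37 over the internodes. A replicate block on the column numbers changed no call of the 3 genes and left 4 instead of 37 genes called between the internodes. Same-numbered libraries deviated together in 1 of 3 internode pairs (r = -0.12, 0.20 and -0.11 across genes). Deviations from the mean of only 3 libraries are tied to each other, so this cannot tell whether the numbers pair libraries. The count of 37 was 23 after scaling and 7 to 161 with a library left out, and that of 5358 for the meristem against internode 7-8 was 3184 and 3496 without meristem library 1 or 2. Scaling moved the share of higher calls from 77.6% to 66.1% there, and for spikelets from 39.6% to 56.6% against internode 6-7, 47.2% to 63.1% against internode 7-8 and 30.5% to 49.4% against the meristem. Judged by tissue means in place of libraries, none of the 5 named genes most like the paralogue was shared, and 2 of 5 for SHR. Shallower spikelet libraries make low levels there less certain.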
